A study of Mus musculus with 12 samples.

Results

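The Slc25 genes encode the mitochondrial carrier family, the transporters that move nucleotides, phosphate, amino acids, carboxylates, cofactors and metal across the inner membrane of mitochondria. The members described here are the genes whose symbol in the platform annotation begins with Slc25a, which gave 42 of the 17742 named genes on the array, read by 47 of its 26423 probes. A gene with more than 1 probe was represented by the probe with the highest mean deposited intensity. The samples were whole hearts of mice at postnatal day 8, on the C57bl/6 X 129 hybrid background. Of the 4 biological samples, 2 were labelled Salv CKO, a conditional mutant of the Hippo pathway scaffold gene Salvador (Sav1), and 2 were labelled Control and given as wild-type. Each sample was hybridised, with Cy5 label, to 3 technical arrays, 12 arrays in all. The Cre driver, the deleted part of Sav1, and whether a sample held 1 heart or a pool were given in none of the sources used. The comparison asked which of these genes depend on the Hippo pathway in the neonatal heart.

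A mitochondrial carrier is a small membrane protein built from 3 repeats of a pair of helices. Many carriers exchange a solute of the matrix for a solute of the space between the membranes, and some move a solute together with a proton. In heart muscle the family supports contraction directly: Slc25a4 exports ATP in exchange for ADP, Slc25a3 brings in the phosphate for ATP synthesis, Slc25a20 brings in acylcarnitines for fatty acid oxidation, and Slc25a11 and Slc25a12 carry out the membrane steps of the malate-aspartate shuttle. Around birth the heart turns from glycolysis to fatty acid oxidation, and the use of these carriers grows with the mitochondria. The Hippo pathway restrains the co-activators Yap1 and Wwtr1, which act through TEAD factors on DNA.

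Levels are given as log2(intensity + 1) after quantile normalization of the 12 arrays, averaged over the 3 technical arrays of a sample. A difference is the mean of the Salv CKO samples minus that of the Control samples on this scale, with its standard error (SE, limma, n = 2 samples per group). Probes differ in how strongly they bind, so levels were compared between samples of a probe and not between genes. Of the 42 members, 36 had a mean level above the median of all probes (6.13). The other 6, Slc25a2, Slc25a18, Slc25a21, Slc25a41, Slc25a42 and Slc25a43, lay below it and are called dim. All 5 measured markers of heart muscle were bright, with levels of 14.68 to 14.94 for Nppa and 15.35 to 15.62 for Actc1 over the 4 samples. The labels do not say whether the samples came from separate litters or animals, so p-values here measure only the spread between these samples, and technical arrays were not counted as replicates. Sav1 did not separate the groups, at 8.06 and 8.52 in Salv CKO 1 and 2 against 8.75 and 8.08 in Control 1 and 2 (difference -0.12 ± 0.34, limma adjusted p = 0.999). Directions below are therefore those of the labels.

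Members with distinct patterns are introduced by the 250 bases before their RefSeq transcription start (GRCm38.p6), since the Hippo pathway reaches its genes through DNA-bound TEAD. Slc25a34 and Slc25a33 had lower levels in both Salv CKO samples. Slc25a36, which like Slc25a33 carries pyrimidine nucleotides, was low in Control 1 alone. All 3 genes lie on the minus strand, and each has 1 start in the table. Capitals mark the TEAD core GGAATG, read on either strand.

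Slc25a34, chr4:141623835-141624084: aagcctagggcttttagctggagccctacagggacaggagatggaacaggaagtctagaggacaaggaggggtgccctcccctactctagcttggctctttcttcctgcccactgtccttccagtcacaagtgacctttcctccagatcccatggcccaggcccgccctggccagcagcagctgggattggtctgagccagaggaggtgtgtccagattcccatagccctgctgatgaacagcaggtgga

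Slc25a33, chr4:149774268-149774517: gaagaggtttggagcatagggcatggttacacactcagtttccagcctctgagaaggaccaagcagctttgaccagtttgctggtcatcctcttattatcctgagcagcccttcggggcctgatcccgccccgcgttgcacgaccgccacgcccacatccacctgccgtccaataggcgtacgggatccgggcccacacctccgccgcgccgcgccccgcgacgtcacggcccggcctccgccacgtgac

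Slc25a36, chr9:97111042-97111291: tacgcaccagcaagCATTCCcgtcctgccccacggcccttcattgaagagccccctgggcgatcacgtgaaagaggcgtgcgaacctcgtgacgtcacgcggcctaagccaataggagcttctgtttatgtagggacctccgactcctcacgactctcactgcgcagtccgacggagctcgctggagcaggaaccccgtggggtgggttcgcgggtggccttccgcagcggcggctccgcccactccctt

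The TEAD core was found once in the Slc25a36 window, on the opposite strand, and not in those of Slc25a33 and Slc25a34. Slc25a22, also lower in both Salv CKO samples, has 3 starts, which are not printed here. None of its windows held the TEAD core. The windows of Slc25a33 and Slc25a36 held 23 and 24 CpG dinucleotides, against 1 in that of Slc25a34 and a median of 6 over all promoters. Promoter windows were matched for 33 members, with 42 distinct starts. The TEAD core occurred in 7 of these 42 (16.7%), against 12.6% of 32817 promoter windows of the same length. The genes holding it were Slc25a16, Slc25a20, Slc25a23, Slc25a24, Slc25a25 and Slc25a36. The estrogen-related receptor element TNAAGGTCA, searched on both strands, was in 0 of 42 windows and in 1.14% of all windows. The palindromic core of the nuclear respiratory factor 1 element was in 0 of 42 and in 0.777% of all. A match of letters is a description and does not show that a factor binds.

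Between the groups, the differences of the family centred near 0, with 3 members lower in both Salv CKO samples by amounts well above the spread within the groups. The difference was above 0 for 20 of the 42 members and below 0 for 22, with a median of -0.02, against a median of -0.01 and 48.6% above 0 over all probes. No member passed the threshold, an adjusted p of 0.05 over all probes (limma, smallest adjusted p = 0.999), and neither did any of the 26423 probes, a share of 0%, while 1047 had an unadjusted p under 0.05. The 4 members at an unadjusted p under 0.05 were Slc25a34, Slc25a22 and Slc25a33, which were lower, and Slc25a2, which was higher, where 3.96% of all probes reached that level. Of the 36 brighter members 3 reached it, against 163 of the 13212 probes above the median level. The members were not tested as a set. The values of the Salv CKO samples did not overlap those of the Control samples for 16 members, 9 higher and 7 lower, or 38.1%, against 30.6% of all probes. The difference was smaller than 0.25 in size for 30 of the 42 members, against 15128 of the 26423 probes. Among the 36 brighter members it was so for 26, against 9136 of the 13212 probes above the median level. The 95% interval of a member's difference reached a median of 0.59 to either side, so the design left most differences of that size or less open in direction. When arrays were scaled to a common median, 11 of 42 members had a difference above 0 (26.2%), where 29.0% of the probes above the median level did. The centre of those probes then moved to -0.14, and 19 members lay above it, against 20 as processed here.

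**Figure D1:**
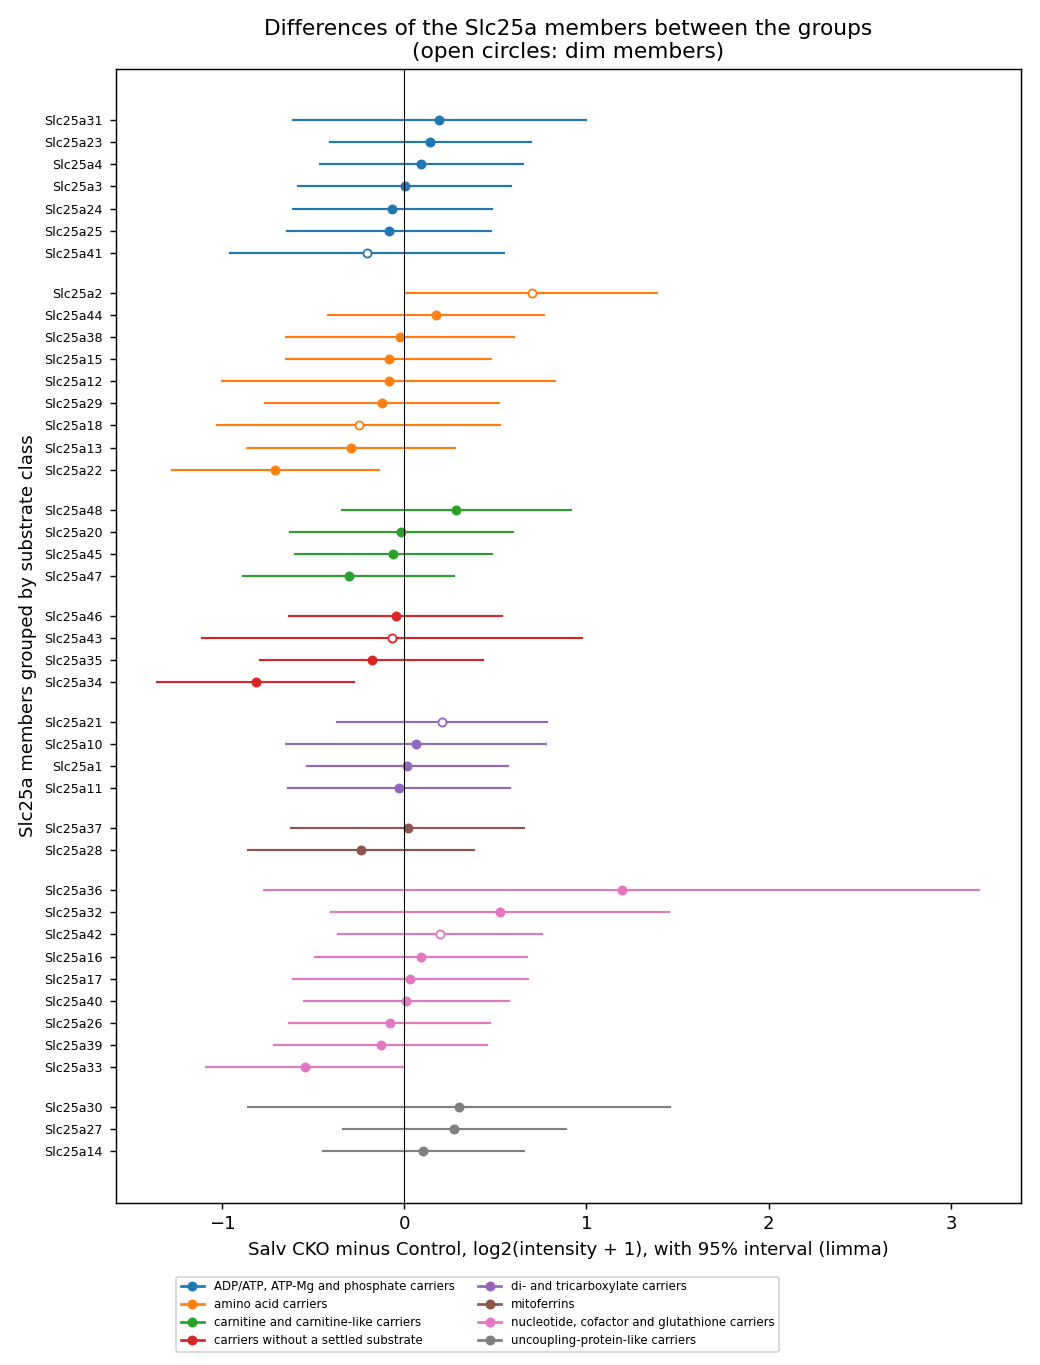
Salv CKO minus Control difference of each of the 42 members on the log2(intensity + 1) scale (points) with its 95% interval from limma (lines, 2 samples per group), coloured by substrate class, with dim members as open circles. Slc25a34, Slc25a22 and Slc25a33 lie farthest to the left, Slc25a36 lies farthest to the right with the widest interval, and most points fall within 0.25 of 0.

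Slc25a34, a carrier of the inner membrane without a settled substrate, had the smallest p of the family. Salv CKO 1 and 2 had levels of 8.01 and 7.94, and Control 1 and 2 of 8.78 and 8.80. The 2 samples of each group lay within 0.079 of each other and the groups did not overlap. The deposited intensities averaged 234 and 284 in the Salv CKO samples against 451 and 407 in the controls, before the arrays were brought to a common scale. The difference was -0.82 ± 0.21 (SE, 95% interval from -1.36 to -0.27, limma unadjusted p = 0.0126, adjusted p = 0.999), or 1.76 times lower on the normalized scale. All 6 Salv CKO arrays, from 7.84 to 8.06, lay below all 6 Control arrays, from 8.74 to 8.84. With 1 sample left out, the difference ran from -0.86 to -0.78. In a fit of all 12 arrays that took the sample for a random block, Slc25a34 was the only member past the threshold (limma, adjusted p = 0.00249), where 61 probes passed, a share of 0.231%. That fit draws degrees of freedom from the technical arrays, which are not replicates. Since RNA came from whole tissue, fewer cells that express a gene and less RNA per cell cannot be told apart.

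Slc25a22, which brings glutamate into the matrix together with a proton, gave levels of 8.65 and 8.73 in Salv CKO 1 and 2, against 9.49 and 9.29 in Control 1 and 2. The lower control exceeded the higher Salv CKO sample, and all arrays of the groups were apart as well. Its difference was -0.71 ± 0.22 (SE, limma unadjusted p = 0.0248, adjusted p = 0.999), or 1.63 times lower. Slc25a18, the other glutamate carrier, was dim, at 4.11 and 4.75 in the Salv CKO samples and 4.72 and 4.64 in the controls, and its groups overlapped. Slc25a33, which carries pyrimidine nucleotides, gave levels of 8.87 and 8.81 in Salv CKO 1 and 2 against 9.42 and 9.36 in Control 1 and 2. The samples of a group differed by at most 0.068, and the difference between groups was -0.55 ± 0.21 (SE, limma unadjusted p = 0.0492, adjusted p = 0.999). With any 1 sample left out, Slc25a22 stayed between -0.81 and -0.61 and Slc25a33 between -0.58 and -0.51.

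**Figure D2:**
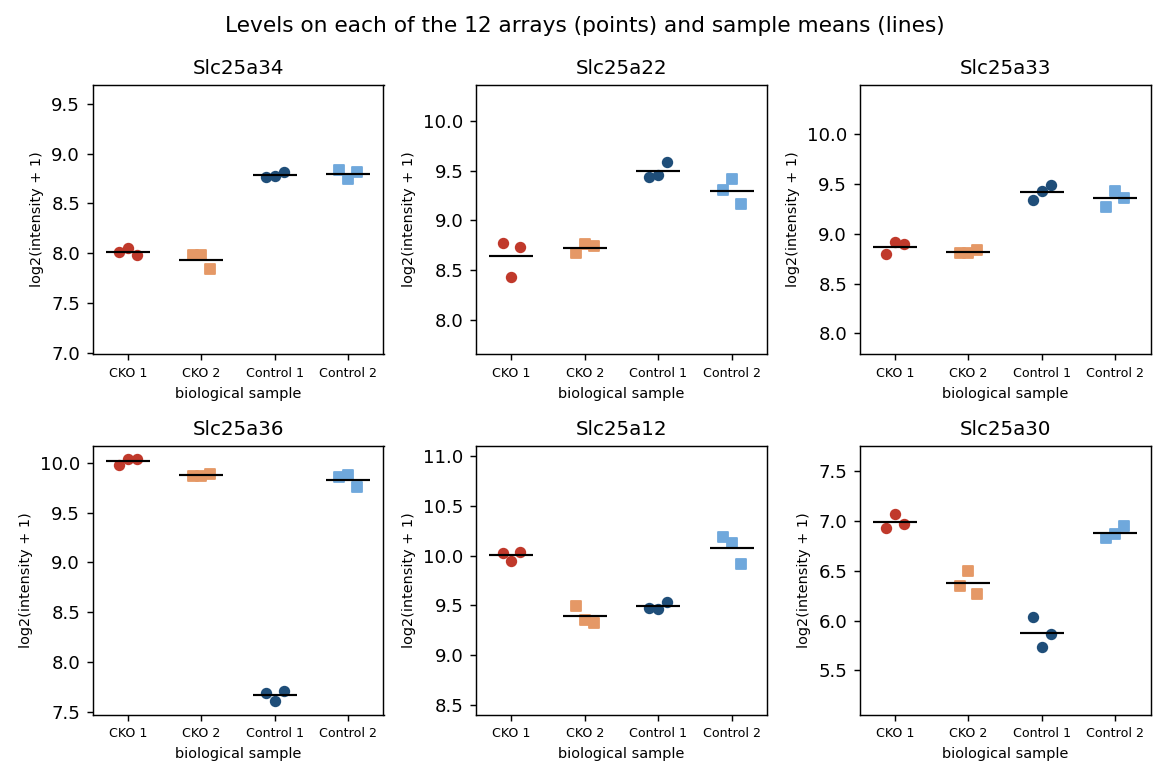
Level of 6 members on each of the 12 arrays (points, log2(intensity + 1)) with the mean of the 3 technical arrays of each sample (lines), all panels spanning the same range. Slc25a34, Slc25a22 and Slc25a33 are lower in both CKO samples than in both controls, Slc25a36 is low in Control 1 alone, and Slc25a12 and Slc25a30 are higher in CKO 1 and Control 2.

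The largest difference in the family, that of Slc25a36, rested on 1 control sample. Slc25a36, the second carrier of pyrimidine nucleotides, had a level of 7.67 in Control 1, while Control 2 read 9.83 and the Salv CKO samples 10.02 and 9.87. Its 3 arrays in Control 1 lay between 7.61 and 7.71, so the low level came with every array of that sample. The difference between groups was 1.19 ± 0.74 (SE, limma unadjusted p = 0.174, adjusted p = 0.999), and 0.11 without Control 1. Between Control 1 and Control 2 it was -2.16, tested against the spread of technical arrays (limma, adjusted p = 6.42e-08). That test compares 2 RNA samples and not genotypes.

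Control 1 was also lowest for Slc25a32, which brings folate and FAD into mitochondria, and for Slc25a30, an uncoupling-protein-like carrier. Slc25a32 read 5.97 there, while Control 2 read 6.81 and the Salv CKO samples 7.03 and 6.80. Its difference of 0.53 ± 0.35 (SE) became 0.11 without Control 1. For Slc25a30 the controls read 5.88 and 6.88 and the Salv CKO samples 6.99 and 6.37, so its groups overlapped. Its difference of 0.30 ± 0.44 (SE) became -0.20 without Control 1. The enzyme gene Cpt2, whose product releases the acyl groups that Slc25a20 brings in, also had a low mean in Control 1 (11.30, against 13.94 to 14.02 in the other samples), but there the low value came from 1 array (5.30), with 14.35 and 14.26 on the other arrays of that sample.

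The carriers that serve ATP synthesis stood close to level between the groups. Of 7 members that carry ADP, ATP, ATP-Mg or phosphate, 4 had a difference above 0, the median was 0.0022, and 1 had groups without overlap. Slc25a5, another ADP/ATP carrier, was not among the members found by symbol, so its level is not known here. Slc25a4, the ADP/ATP carrier of heart and muscle, gave 14.97 and 14.81 in Salv CKO 1 and 2 and 14.77 and 14.83 in Control 1 and 2. Salv CKO 2 lay between the controls, and the difference was 0.093 ± 0.21 (SE), with a 95% interval from -0.46 to 0.65. Its sign turned under scaling to a common median (-0.068). Slc25a3, the phosphate carrier, gave 12.12, 11.88, 11.96 and 12.04 in the same order, with a difference of 0.0022 ± 0.22 (SE) whose sign turned under every other scaling. The interval for Slc25a3 ran from -0.58 to 0.59. Among the carriers that exchange ATP-Mg for phosphate, Slc25a23 differed by 0.14, without overlap of the groups, Slc25a24 by -0.066 and Slc25a25 by -0.083. Slc25a41, their dim relative, differed by -0.20. Slc25a31, an ADP/ATP carrier known mainly from germ cells, was read by a probe at levels from 6.67 to 7.31, with Control 1 lowest. The 3 measured testis markers were dim in all samples, with summed normalized intensities of 25 and 22 in the Salv CKO samples and 30 and 27 in the controls.

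Among 9 amino acid carriers, 2 had a difference above 0 and 7 below, with a median of -0.09. Slc25a12, the calcium-regulated aspartate-glutamate carrier of heart and muscle, differed between samples but not with the labels. Salv CKO 1 and 2 read 10.00 and 9.39, and Control 1 and 2 read 9.49 and 10.08, so that 1 sample of each group was high. The 2 Salv CKO samples differed by 0.61 (limma over technical arrays, adjusted p = 0.000961) and the 2 controls by -0.59 (adjusted p = 0.000367), while the groups differed by -0.086 ± 0.35 (SE). Slc25a13, its counterpart citrin, gave 11.48 and 11.50 in the Salv CKO samples against 11.89 and 11.67 in the controls, without overlap, and a difference of -0.29 ± 0.22 (SE, limma adjusted p = 0.999), or -0.18 without Control 1. Slc25a38, which brings glycine to heme synthesis, was highest in Salv CKO 1 (9.26) and lowest in Salv CKO 2 (8.89), with the controls between at 9.11 and 9.10. Slc25a44, which carries branched-chain amino acids, differed by 0.17, and without Control 1 by 0.030. The ornithine carrier Slc25a15 differed by -0.084 and Slc25a29, a carrier of basic amino acids, by -0.12. Slc25a2, the second ornithine carrier, was dim, at 5.05 and 5.49 against 4.46 and 4.68. Its difference of 0.70 ± 0.26 (SE, limma unadjusted p = 0.0477, adjusted p = 0.999) became 0.42 with a pseudocount of 16 in place of 1, and its technical arrays spread by 0.67 (SD).

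Of the 4 di- and tricarboxylate carriers, 3 had a difference above 0, with a median of 0.040. Slc25a11, the oxoglutarate-malate carrier of the malate-aspartate shuttle, was, like Slc25a12, higher in Salv CKO 1 and Control 2. Salv CKO 1 and 2 read 13.63 and 13.40, and Control 1 and 2 read 13.43 and 13.66. The groups differed by -0.028 ± 0.23 (SE), with an interval from -0.64 to 0.58, and by 0.0024 with the median of technical arrays. The citrate carrier Slc25a1 ranged over 0.11 in the 4 samples and the groups differed by 0.017. Slc25a10, the dicarboxylate carrier, was lowest in Control 2 at 7.50 and highest in Control 1 at 7.98. Its second probe, which was dim, ordered the controls the other way, at 5.46 in Control 1 and 5.81 in Control 2, so the order of the controls rests on the probe. Slc25a21, which carries oxodicarboxylates, was dim, at 4.19 and 4.01 against 3.82 and 3.97, and differed by 0.21, without overlap, by 0.12 without Salv CKO 1 and by 0.11 at a pseudocount of 16.

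Slc25a20, the carnitine-acylcarnitine carrier of fatty acid oxidation, did not separate the groups, at 11.79 and 11.82 in Salv CKO 1 and 2 and 11.66 and 11.99 in Control 1 and 2. The Salv CKO samples lay between the controls, and the difference was -0.016 ± 0.23 (SE). Its second probe gave 11.07 in both Salv CKO samples against 11.25 and 11.36 in the controls, a difference of -0.23 without overlap. Among 3 members grouped with it here, Slc25a47, a carrier known from liver, gave 7.21 and 7.25 against 7.66 and 7.42, a difference of -0.31 without overlap, and of -0.19 without Control 1. Slc25a48 gave 7.46 and 7.65 against 7.43 and 7.11, a difference of 0.29 in the other direction, also without overlap, which became 0.12 without Control 2 (0.45 without Control 1). Slc25a45 ranged over 0.083 in the 4 samples, the narrowest range of any member.

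The mitoferrins bring iron into mitochondria for heme and iron-sulfur clusters. Slc25a28, the mitoferrin of most tissues, gave 10.22 and 10.06 in the Salv CKO samples and 10.54 and 10.22 in the controls. Control 1 was high, Control 2 was level with Salv CKO 1, and the difference of -0.24 ± 0.23 (SE) became -0.08 without Control 1. Slc25a37, the mitoferrin of red cell precursors, gave 9.91 and 9.93 against 9.71 and 10.10, with overlap and a difference of 0.018 ± 0.24 (SE). Of 7 measured erythroid markers, 4 were lowest in Control 2, among them Alas2, the heme synthesis enzyme of red cells, at 12.32 against 13.08 to 13.66 in the other samples. The summed normalized intensity of the erythroid markers was 9159 and 13718 in Salv CKO 1 and 2 and 11061 and 5340 in Control 1 and 2. That sum was carried by Alas2, and 5 of the 7 markers were dim. Among the dim ones, Hemgn was lowest in Control 1, Rhag in Salv CKO 2 and Klf1 in Salv CKO 1. Slc25a37 was highest in Control 2, where Alas2 and the sum were lowest.

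Of 9 carriers of nucleotides, cofactors and glutathione, 6 had a difference above 0. Apart from Slc25a33, Slc25a36 and Slc25a32, the brighter members of this class differed by at most 0.13 in size. These were Slc25a16 (0.091), which is linked to coenzyme A, Slc25a17 (0.034), a carrier of peroxisomes, Slc25a26 (-0.079), which brings in S-adenosylmethionine, and the glutathione carriers Slc25a39 (-0.13) and Slc25a40 (0.012). Slc25a42, a coenzyme A carrier, was dim and differed by 0.20 without overlap. The 3 uncoupling-protein-like carriers all had a difference above 0. Slc25a27 gave 8.95 and 8.69 in Salv CKO 1 and 2 against 8.65 and 8.44 in the controls, a difference of 0.27 ± 0.23 (SE) without overlap, which became 0.14 without Salv CKO 1. Slc25a14 differed by 0.10 without overlap. In the class without a settled substrate, Slc25a34 stood beside Slc25a35 (-0.18), Slc25a46 (-0.047), a protein of the outer membrane linked to mitochondrial shape, and the dim Slc25a43 (-0.066).

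A second probe was present for 5 members and gave the same direction of the difference between groups in each. Beside Slc25a20, the other probes differed by 0.56 for Slc25a2, 0.16 for Slc25a10, 0.96 for Slc25a31 and -0.19 for Slc25a46, where the brighter probes gave 0.70, 0.06, 0.19 and -0.05. The second probes of Slc25a2 and Slc25a31 were at mean deposited intensities of 1.25 and 4.58, close to background. The probe sequences were not analysed here, and close relatives such as Slc25a12 and Slc25a13 or Slc25a33 and Slc25a36 may share signal.

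Differences among the 4 samples were common in the family. A limma F-test over the 12 arrays, which sets the samples against the spread of technical arrays, found 21 members that differed among the samples (adjusted p under 0.05), or 50% of the 42, against 46.2% of all probes. All 21 were among the 36 brighter members, a share of 58.3%, against 72.9% of the probes above the median level. Control 1 and Control 2 differed for 14 of the 36, against 56.5% of such probes. Control 1 was the lower in 11 of these 14, against 3289 of the 7459 such probes that differed, or 24.9% of all such probes. Salv CKO 1 and 2 differed for 6 of the 36, Slc25a3, Slc25a11, Slc25a12, Slc25a30, Slc25a35 and Slc25a38, against 33.1% of such probes. All 6, or 16.7% of the 36, were higher in Salv CKO 1, against 1817 of the 4372 such probes that differed, or 13.8% of all such probes. For 31 of the 42 members the larger difference within a group exceeded the difference between the groups, against 81.5% of all probes. The brighter members ranged over a median of 0.38 in the 4 samples, against 0.46 for the probes above the median level. Salv CKO 2 was the lowest sample for 13 of the 36, against 15.2% of such probes, and Control 2 the highest for 11, against 18.2%.

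**Figure D3:**
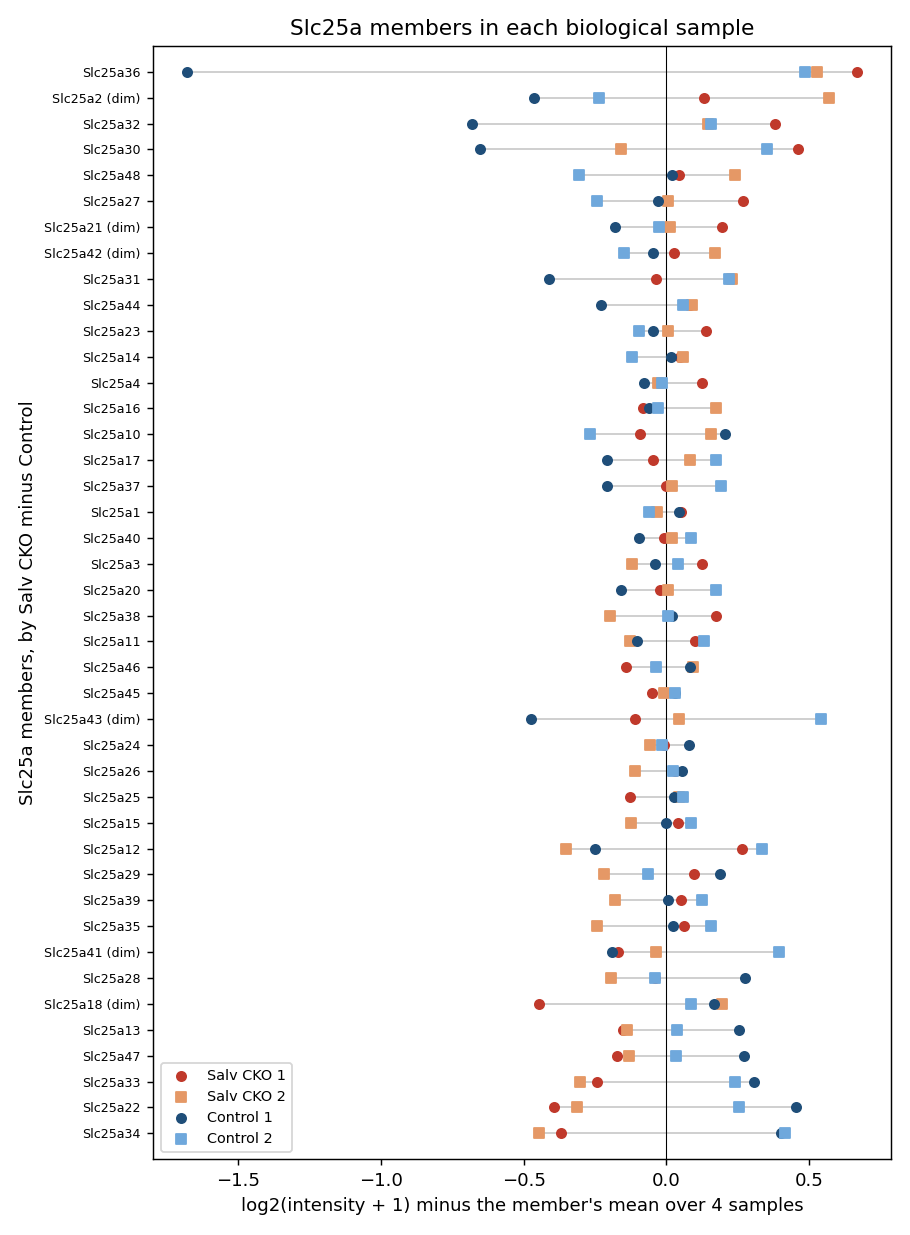
Level of each of the 42 members in the 4 biological samples (points), as log2(intensity + 1) minus the member's mean, ordered by the difference between the groups. The points of both Salv CKO samples lie left of both controls for Slc25a34, Slc25a22 and Slc25a33 at the bottom, and the point of Control 1 for Slc25a36 lies far to the left at the top.

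Markers of other tissues also differed between samples. The 10 measured brown fat and adipocyte markers included 9 with a difference below 0, and 8 were lowest in Salv CKO 2. Their summed normalized intensity was 22122 and 17408 in Salv CKO 1 and 2 and 28915 and 24403 in Control 1 and 2. Ucp1, the family's uncoupling protein of brown fat, stood at 11.95, 9.75, 12.71 and 11.74 in that order, and Cidea, a lipid droplet protein, at 11.68, 11.37, 11.90 and 12.10. Cfd, a secreted adipocyte protein, was dim and was the only one of the 10 at an unadjusted p under 0.05 (limma, difference -1.80). The summed adipocyte signal was thus lower in both Salv CKO samples, as were Slc25a34, Slc25a22 and Slc25a33. The part of the adipocyte signal in their differences was not tested. Fabp4 gave the largest part of the sum, at 13.66 and 13.61 in Salv CKO 1 and 2 against 13.91 and 13.79 in the controls. The groups did not overlap for 8 of the 10 markers, against 30.6% of all probes. Of these 8 markers, only Lep was higher in Salv CKO. Adipoq, for example, stood at 8.65 and 7.13 in Salv CKO 1 and 2 against 9.05 and 8.66 in the controls. Ucp1 and Plin1 overlapped between the groups, with Salv CKO 1 above Control 2 (11.95 against 11.74, and 8.74 against 8.64). The dim Lep was higher in both Salv CKO samples. Between Salv CKO 1 and 2, Slc25a34 differed by 0.079, Slc25a22 by -0.08 and Slc25a33 by 0.056. The adipocyte markers varied in this respect: Ucp1 differed by 2.20 and Cidec by 1.53 between these samples, Cidea by 0.31, Fabp4 by 0.053 and Plin5 by -0.23. Plin5, a lipid droplet protein of oxidative tissues including heart, was lower in both Salv CKO samples, at 9.75 and 9.98 against 10.38 and 10.43. Of 4 skeletal muscle markers, 2 had a difference above 0, and Acta1, an actin that the neonatal heart also makes, was lower in both Salv CKO samples (9.46 and 9.92 against 11.08 and 10.85, difference -1.27, limma unadjusted p = 0.00608, adjusted p = 0.999). The creatine kinase gene Ckm of heart and skeletal muscle differed by -0.0089 and the fast skeletal troponin gene Tnni2 by 0.20. Of 4 airway markers, all were highest in Control 2, and the summed intensity was 330 and 2458 in Salv CKO 1 and Control 2 against 51 and 46 in Salv CKO 2 and Control 1. That sum was carried by Scgb1a1, a secreted protein of airway cells; the other 3 were dim, and Sftpa1 was lower in Salv CKO 1 (2.56) than in Salv CKO 2 (2.85). Slc25a12, Slc25a11 and Slc25a30, picked after their values were seen, were higher in the samples with the higher Scgb1a1. So were Slc25a3, Slc25a4, Slc25a15, Slc25a32, Slc25a35 and Slc25a39, while Slc25a10, Slc25a46 and the dim Slc25a18 were lower in those samples. Airway markers were not alone in parting these pairs of samples. Sav1 was lower where Scgb1a1 was higher: Salv CKO 1 read 8.06 and Control 2 read 8.08. Its level was 8.75 for Control 1 and 8.52 for Salv CKO 2. Among the regulators of mitochondrial genes given below, only Ppargc1a and Nrf1 had the same split as Sav1. The part of airway tissue, or of any other difference between these pairs, was not tested. Liver markers were low throughout, with summed intensities from 244 to 373, and all 3 with the smallest p were dim: Cps1 differed by 1.63 (limma unadjusted p = 0.00673, adjusted p = 0.999), Alb, the albumin gene, by 0.66 and Afp by -0.59.

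**Figure D4:**
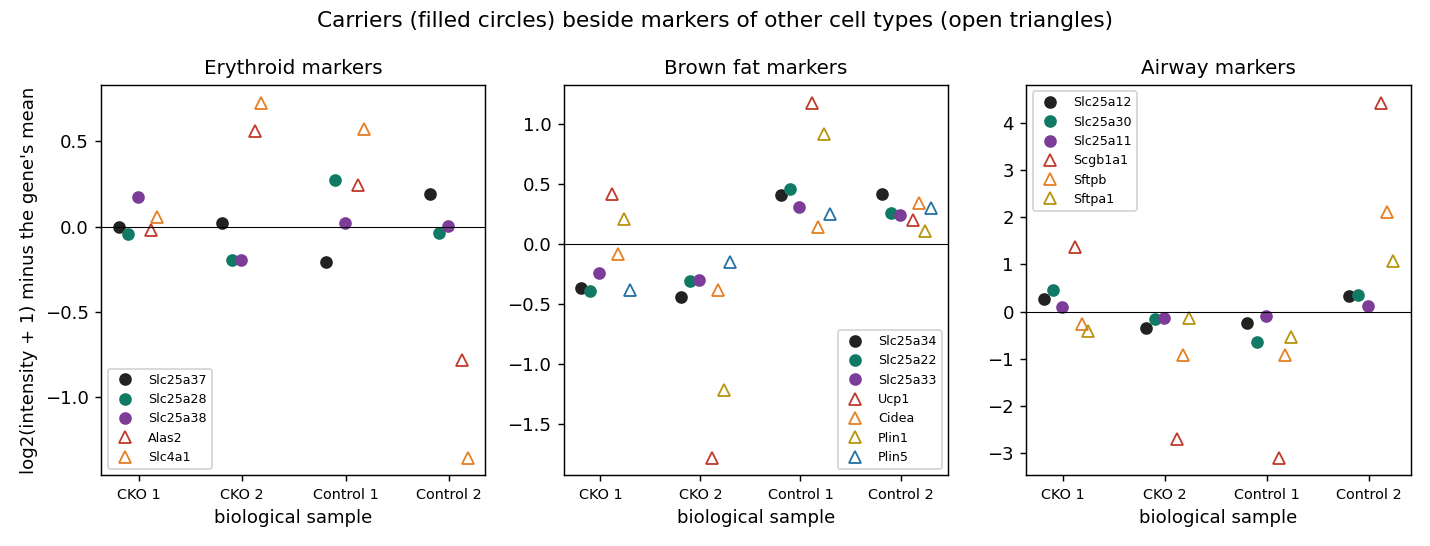
Level of 9 carriers (filled circles) and of markers of red cells, brown fat and airway (open triangles) in the 4 biological samples, as log2(intensity + 1) minus each gene's mean, with a separate vertical scale in each panel. In CKO 2, Ucp1 and Plin1 are far lower than in CKO 1, while Cidea, Plin5, Slc25a34, Slc25a22 and Slc25a33 are below 0 in both CKO samples, and all 3 airway markers shown are highest in Control 2.

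Genes that work beside the carriers are given by their counts and values, since no probe on the array passed the threshold in this comparison. Of 7 family genes under other symbols, 3 had a difference above 0. Ucp1 is given above, the dim Ucp2 differed by 0.27, Ucp3, the uncoupling protein of muscle, gave 8.04 and 7.93 against 8.07 and 8.46, a difference of -0.28 without overlap, and the outer membrane proteins Mtch1 and Mtch2 differed by 0.041 and 0.20. Slc25a51, the NAD carrier, listed in the annotation as Mcart1, was highest in Control 1, at 11.13, and ranged from 10.28 to 10.60 elsewhere. Among 16 other transporters of the mitochondrial membranes, 9 had a difference above 0, with a median of 0.048. Mcu, the pore of the calcium uniporter, had the smallest unadjusted p there, with levels of 7.28 and 7.05 against 6.27 and 6.78 and a difference of 0.64 ± 0.27 (SE, limma unadjusted p = 0.0711). The sideroflexin genes Sfxn4 and Sfxn3 differed by 0.43 and -0.39.

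Of 13 genes that import carriers into the inner membrane, 9 had a difference below 0. The dim Tomm7, a small subunit of the outer membrane pore, differed by -0.71, the lipid kinase Agk, a part of the carrier translocase, by 0.27 and the pore gene Tomm40 by -0.23. Of 15 enzymes paired with the carriers, 9 had a difference below 0. The ferrochelatase gene Fech gave 11.14 and 11.35 against 11.56 and 11.69, a difference of -0.38 without overlap, and the cytosolic malate dehydrogenase gene Mdh1 gave 10.17 and 10.39 against 10.05 and 10.09, a difference of 0.21, also without overlap. Cpt2, with 1 low array, differed by 1.32. The probe of Ckmt2, the mitochondrial creatine kinase of heart muscle, was near background, at 0.12 to 2.59. Of 8 regulators of mitochondrial genes, 5 had a difference below 0, with a median of -0.21. The co-activator gene Ppargc1a (-0.55 ± 0.41, SE), the receptor gene Esrra (-0.24) and Gabpa (0.30) had the smallest p. The groups of Ppargc1a overlapped, at 8.32 and 8.96 in Salv CKO 1 and 2 against 9.62 in Control 1 and 8.75 in Control 2. Those of Esrra and Gabpa did not overlap.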

How the data were processed

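RNA of 4 heart samples was measured on 12 one-colour arrays (Cy5, amino-allyl aRNA, per the labels' protocols). The deposited values are intensities on a linear scale, from -10 to 65474, with array medians of 58 to 88. The normalization behind these deposited intensities was given in none of the sources used.

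Arrays were quantile normalized (limma 3.58.1, R 4.3.3), values at or below 0 were set to the lowest positive normalized value (0.0833), and log2(value + 1) was averaged over the 3 technical arrays of a sample. The 2 Salv CKO and 2 Control samples were compared with limma (lmFit, eBayes, 2 residual and 2.60 prior degrees of freedom) and adjusted by Benjamini-Hochberg over 26423 probes, with a threshold of 0.05. A second limma fit over the 12 arrays compared the samples against technical error. The fits were tested on simulated data.

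Of the probes, 20377 had 1 gene symbol and 6046 had none; symbols were updated through a RefSeq gene table (GRCm38.p6). No pair of arrays was identical. The labels give the source as embryonic heart and the stage as P8; the stage was used. Members, classes and lists were chosen with earlier results of these data known. Members named with the value in every sample were the up to 6 with the smallest p in each direction, the up to 6 brighter ones with the largest range over samples, and Slc25a3, Slc25a4, Slc25a11, Slc25a12, Slc25a13, Slc25a20, Slc25a28, Slc25a37 and Slc25a38; from each list of pathway genes outside the family, the 3 genes with the smallest p were named, and further genes, most markers included, were chosen after their values were seen. Alternatives were other scalings, pseudocounts, summaries of technical arrays, blocks and leaving out each sample.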

Additional observations from a re-analysis of the deposited data

How the results depend on the processing

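With 2 samples per group the median 95% interval reached 0.59 to either side, and dim members were limited by signal over background. No member passed the threshold with any 1 sample left out; the range was 0 to 0. The count of members with an unadjusted p under 0.05 then ran from 0 (without Salv CKO 1 or 2) to 4 (without Control 2), and was 1 without Control 1. The count without overlap ran from 26 to 30, since a lone sample overlaps less often by construction, and its spread was assumed to equal that of the other group.

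With arrays scaled to a common median, 11 members had a difference above 0, their median was -0.17 and 2 probes passed. Without normalization, 2 members had an unadjusted p under 0.05 and 11 probes passed. With all 12 arrays fitted and the sample a random block, 1 member (Slc25a34) and 61 probes passed, and 7 members had an unadjusted p under 0.05. The main fit took no pairs, and a block by sample number (the replicate block) was an alternative. Over all probes, the deviations of samples with the same number were weakly and negatively correlated (-0.25). With the replicate block 1 member, and with the crossed pairing block, chosen after seeing the data, 2 members had an unadjusted p under 0.05; neither changed another call.

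Of 271 values of 20 named members and Sav1 under 13 settings that kept all samples, 263 kept their direction and 8, in 5 members, did not. The blocks, an intensity trend in eBayes and leaving out the dimmest probes cannot alter a difference, so their agreement was fixed in advance. Taking the mean of all probes alters it only for genes with a second probe. The count of 263 therefore overstates how stable the directions were. Slc25a3 was -0.21 with common-median scaling, -0.088 with 75th-percentile scaling and -0.018 without normalization. Slc25a37 was -0.17 and -0.044 with the first 2 of these. Slc25a4 was -0.068 with common-median scaling, Slc25a38 0.016 without normalization, and Slc25a11 0.0024 with the median of technical arrays. With 1 sample left out, the values ran from -0.12 to 0.12 for Slc25a3, -0.14 to 0.088 for Slc25a11, -0.39 to 0.22 for Slc25a12, -0.18 to 0.15 for Slc25a20, -0.20 to 0.80 for Slc25a30, -0.18 to 0.22 for Slc25a37, -0.21 to 0.16 for Slc25a38 and -0.46 to 0.21 for Sav1. The cause was not tested.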
